A study of Mus musculus with 33 samples.

Results

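Genes of hepcidin signalling and iron handling were followed across mouse livers in which MYC, a stabilised form of β-catenin, or both had been switched on, and across tumours driven by the same alleles. The 10 members were taken by gene symbol from the 21671 genes of the deposited table, and every one had a row: Hamp, Hamp2, Tfrc, Tfr2, Trf, Slc40a1, Fth1, Ftl1, Bmp6 and Id1. All 10 passed the filter on low values in both sets of libraries described here. Total RNA was sequenced from 33 livers and liver tumours of C57BL/6 mice.

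In the first set, mice aged 6 to 8 weeks received AAV8-TBG-CRE intravenously, a virus that makes Cre recombinase under a promoter active in hepatocytes, and the livers were collected on day 4. The 5 wild-type livers came from mice with no Cre-dependent allele named in their labels. The 5 Ex3 livers carried the b-cat Ex3 allele, from which Cre removes the stretch that marks β-catenin for degradation. The 5 MYC livers carried R26-lslMYC, in which Cre releases MYC expression from the Rosa26 locus, and the 5 MYC+Ex3 livers carried both alleles. All 20 of these livers, controls included, had been exposed to the Cre virus. In the second set, 3 MYC tumours came from animals with Alb-CreERT2 and R26-lslMYC, and 3 MYC+Ex3 tumours from animals that carried the b-cat Ex3 allele as well. These are nodules that arose under a tamoxifen-inducible Cre driven by the albumin promoter, and the labels give them neither an age nor a treatment. They were compared with 7 livers of wild-type mice taken 4 days after 4-hydroxytamoxifen (4-OHT) was injected into the abdomen. The labels name no Cre allele and no age for those 7 mice, so tumour state, genotype and time since recombination cannot be told apart in that comparison. The labels do not say whether every sample came from an animal of its own. Each group except the MYC tumours held samples of both sexes and so more than 1 animal, but part of the spread between samples, which is what the p-values measure, may be technical.

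Hepcidin is a peptide hormone that hepatocytes secrete when body iron is plentiful. It binds ferroportin, the product of Slc40a1 and the iron exporter of macrophages, enterocytes and hepatocytes, and brings about its degradation. Mice have a pair of hepcidin genes: Hamp encodes the iron hormone, and Hamp2 encodes a closely similar peptide without a clear role in iron balance. Endothelial cells of the liver sinusoids signal the iron load to hepatocytes through BMP6 and BMP2, which act through SMAD proteins to raise Hamp, Id1 and other targets, and interleukin-6 raises Hamp through STAT3. Transferrin, the product of Trf, carries iron in blood. Transferrin receptor 1, the product of Tfrc, brings it into dividing cells and erythroid precursors, while transferrin receptor 2, the product of Tfr2, is made mainly by hepatocytes and takes part in sensing loaded transferrin. Ferritin, built from the heavy chain of Fth1 and the light chain of Ftl1, stores iron. The messenger of Tfrc is stabilised and the translation of ferritin and ferroportin is repressed when cell iron is low, through iron regulatory proteins, so part of the control of these genes is not visible in RNA.

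The hepcidin genes lie near each other on chromosome 7, and their promoters are shown because the sequences are close. Whether the changes of Hamp and Hamp2 given below differ from each other was not tested. The 250 bases before each start are given 5′ to 3′ from RefSeq (GRCm38.p6, minus strand), for Hamp chr7:30944030-30944279 and for Hamp2 chr7:30924182-30924431, with capitals marking GGCGCC, the core of a BMP response element, and TTCNNNGAA, the pattern of STAT sites.

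Hamp: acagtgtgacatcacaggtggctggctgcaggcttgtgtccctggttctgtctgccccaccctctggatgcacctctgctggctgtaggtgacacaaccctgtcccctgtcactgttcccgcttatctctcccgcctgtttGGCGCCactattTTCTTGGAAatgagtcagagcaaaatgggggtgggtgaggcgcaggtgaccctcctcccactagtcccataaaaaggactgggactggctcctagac

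Hamp2: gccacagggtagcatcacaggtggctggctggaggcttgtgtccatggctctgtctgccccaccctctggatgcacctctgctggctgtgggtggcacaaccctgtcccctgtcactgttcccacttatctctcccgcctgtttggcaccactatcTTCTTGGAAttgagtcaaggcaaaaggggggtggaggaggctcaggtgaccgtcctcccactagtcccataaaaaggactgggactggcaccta

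Hamp carried GGCGCC 109 bases and TTCTTGGAA 97 bases before its start. Hamp2 carried the same TTCTTGGAA 94 bases before its start and no GGCGCC, with the substitution G145A inside the aligned GGCGCC, counted from 1 at the 5′ end of the printed Hamp sequence. The aligned promoters were 89.7% identical (227 of 253 columns), and the longest identical stretch ran to 40 bases. Of 32851 promoters in the RefSeq table, 11.9% held GGCGCC and 8.30% held TTCNNNGAA on either strand within their 300-base windows, and of the other matched members a Tfrc entry held GGCGCC, 89 bases before its start. CACGTG, an E-box that MYC binds with MAX, was in 7.15% of all windows and among the matched members only in that of Bmp6, 127 bases before the start. CTTTGA, the core of TCF/LEF sites, was in 16.0% of windows and among the members only in 1 of the Tfr2 entries. The search covered 7 of the 10 members and both strands, and a match is a description of letters, not of binding.

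The likeness of the hepcidin genes extends to their transcripts. The longest GENCODE transcripts of Hamp (410 bases) and Hamp2 (437 bases) were 88.8% identical, the longest shared run had 87 bases, and 16.6% of the 50-base windows of Hamp occurred exactly in Hamp2. Reads from the shared stretches could be assigned to either gene or dropped, and how the counting treated them is not given in the sources used here, so the level of each is uncertain to that extent. Across groups the median ratio of Hamp to Hamp2 in RPKM (reads per kilobase of gene and M reads) ran from 1.43 in the wild-type livers of day 4 to 15.6 in the MYC+Ex3 tumours, so the rows were far from being copies of one another. A further near copy concerned Ftl1, whose transcript was 91.0% identical to that of Ftl1-ps1, with 73.4% of its 50-base windows shared. The deposited table lists a row Ftl2 beside Ftl1, at a median of 2.55 times less in day-4 livers and 3.12 times less in the second set, and the Ftl1 values carry that uncertainty.

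The libraries of day 4 held 3.75 to 7.31 M reads in genes (median 4.98) and those of the second set 6.65 to 9.82 M (median 8.25). Their RPKM scales differed, with the highest gene at 220.3 to 396 RPKM on day 4 and at 42.9 to 67.5 in the second set, so levels are compared only within a set. Hepatocyte genes were abundant in every group, with Alb at a median of 222 to 266 RPKM on day 4 and of 35.7 to 49.0 in the second set. Reads of abundant genes grew less than in proportion to depth: within groups, log2 reads rose by 0.29 per log2 of depth for the 50 most abundant genes of day 4, and by 1.00 for the 4500 genes of middle rank. The corresponding slopes in the second set were 0.17 and 0.91. Trf, Ftl1, Hamp and Fth1 rank among the most abundant genes. Their slopes lay between 0.32 and 0.59 on day 4 and between -0.04 and 0.45 in the second set. Changes in their RNA may be compressed in RPKM. The same may hold for Tfr2 in the second set (slope 0.28, median rank 315 against 449 for Hamp). Slopes of the less abundant members ran from -0.26 (Tfrc) to 1.64 (Bmp6) on day 4. In the second set they ran from -1.22 (Bmp6) to 1.37 (Slc40a1), so the slope of a single gene does not show compression. Keratins of stratified epithelium (Krt5, Krt14 and Krt17) summed to 3.95 to 23.8 RPKM in 10 of the 20 day-4 livers and to at most 0.40 in the other 10; the keratin-bearing livers were 3 wild-type, 3 Ex3, 1 MYC and 3 MYC+Ex3. Sex, read from Xist and Ddx3y, was also unequal, with 2 males among 5 wild-type, 3 among 5 Ex3, 3 among 5 MYC and 4 among 5 MYC+Ex3 livers, 4 among 7 4-OHT livers, and 3 males among the 3 MYC and 2 among the 3 MYC+Ex3 tumours. MYC liver 5 carried both Xist (86.1 RPKM) and Ddx3y (4.74) and was counted as female. The β-catenin target Axin2 checked the Ex3 label, at 10.6 to 24.9 RPKM in Ex3 and 7.49 to 24.3 in MYC+Ex3 livers against 2.73 to 4.30 in wild type, and at 7.63 to 11.3 in MYC+Ex3 tumours against 0.793 to 1.995 in 4-OHT livers. The Myc row overlapped between wild-type (0.748 to 4.11) and MYC livers (3.12 to 4.81) and checks nothing, since the origin of the transgene is not given in the sources used here.

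Fold changes below are differences of log2(RPKM + 1) from limma, two-sided, with Benjamini-Hochberg adjustment over all genes tested, and a gene was called at an adjusted p under 0.05. On day 4, none of the 10 genes was called in Ex3 against wild-type livers, where 0.132% of the 13688 genes tested were called, and none had an unadjusted p under 0.05. In MYC against wild type 1 rose and none fell (3 with an unadjusted p under 0.05), where 22.3% of all genes were called. In MYC+Ex3 against wild type 1 rose and 3 fell, with 24.1% of all genes called, and 1 rose and 1 fell in MYC+Ex3 against Ex3, with 21.1%. None was called in MYC+Ex3 against MYC (0.19% of all genes; 1 member, Bmp6, with an unadjusted p under 0.05) or for the interaction of MYC and Ex3 (0% of all genes, of which 132 had an unadjusted p under 0.05; 1 member, Bmp6 again). In the second set, 1 rose and 3 fell in MYC tumours against 4-OHT livers, where 49.8% of 11854 genes were called, and 2 rose and 4 fell in MYC+Ex3 tumours, where 60.6% were called. In MYC+Ex3 against MYC tumours 1 fell, where 4.13% were called. In the comparisons that hold MYC on 1 side only, the number of members called was thus near the share of all genes called and is no result about iron genes as a set. The 2 comparisons with wild-type livers share those controls, as do the 2 with 4-OHT livers.

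The median log2 change of the 10 genes was -0.22 in MYC and -0.28 in MYC+Ex3 against wild-type livers, beside 0.07 and 0.05 over all genes tested. In the tumours it was -0.07 for MYC and -0.19 for MYC+Ex3, beside 0.19 and 0.23 over all genes. Rescaling each library by its median ratio removes that offset and changes the split of calls over all genes: from 2313 up and 734 down to 1882 and 1302 in MYC livers, from 2455 and 846 to 2050 and 1302 in MYC+Ex3 livers, and from 2249 and 644 to 1941 and 956 against Ex3. In the tumours the split moved from 4286 and 1621 to 3196 and 2790 for MYC, and from 5011 and 2178 to 3999 and 3246 for MYC+Ex3. The directions given below for called members held under rescaling.

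**Figure D1:**
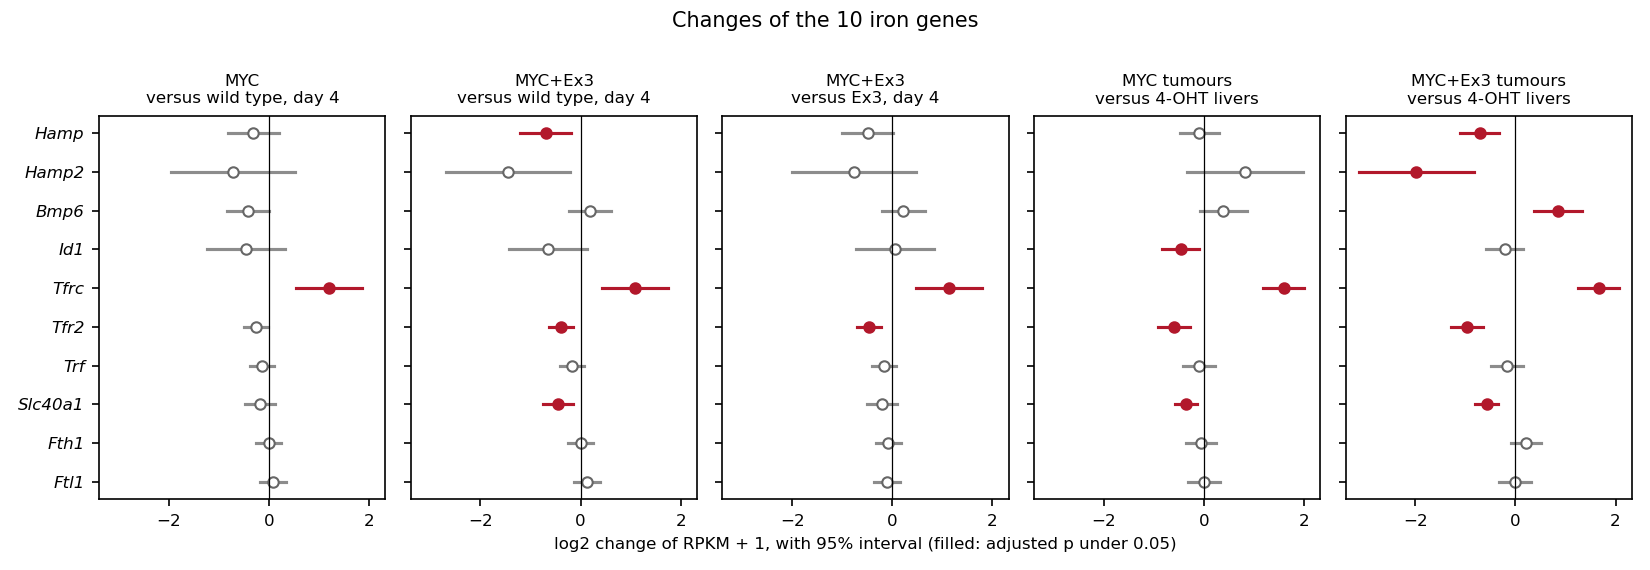
Difference in log2(RPKM + 1) for the 10 genes in 5 comparisons, 1 panel each, with bars for the 95% confidence interval from limma and filled red points for an adjusted p under 0.05. Tfrc lies to the right in every panel, from 1.09 to 1.66, and Tfr2 to the left, from -0.27 to -0.97, while the ferritin genes stay near 0.

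Hamp fell in MYC+Ex3 livers of day 4, though not evenly. Its level in the wild-type livers was 161, 175, 182, 198 and 175 RPKM, and in the MYC+Ex3 livers 71.1, 71.8, 97.4, 169 and 187 RPKM. MYC+Ex3 livers 1 to 3 lay below every wild-type liver, and livers 4 and 5 lay within the wild-type range. The group means were 178 ± 13.6 and 119 ± 55.0 RPKM (SD, n = 5 each), a log2 change of -0.70 (SE 0.25, limma adjusted p = 0.0445). MYC livers had 90.8, 158, 182, 146 and 158 RPKM and Ex3 livers 151, 115, 174, 132 and 217 RPKM, and neither group passed the test against wild type (log2 change -0.31, adjusted p = 0.396, and -0.21, adjusted p of 1). The Hamp reads behind these values numbered 144 to 436 per liver.

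That call for Hamp rests on a few livers. It was lost without MYC+Ex3 liver 1 (-0.54, adjusted p = 0.135), liver 2 (-0.55, 0.139) or liver 3 (-0.65, 0.0782), and also without any single wild-type liver (adjusted p from 0.053 to 0.0873). The change was larger without MYC+Ex3 liver 4 (-0.85, adjusted p = 0.0176) or liver 5 (-0.89, 0.00869). It was -1.25 among keratin-free livers (adjusted p = 0.0108) and -0.33 among keratin-bearing ones (0.399), the MYC+Ex3 livers at 71.1 and 71.8 RPKM being the keratin-free ones. With a term for sex it was -0.59 (adjusted p = 0.103), and in males alone -0.89 (0.122). The call held with a keratin term, and with sex and keratin terms together. Without the filter on low values, or with only the 2 groups fitted, the adjusted p was 0.0722 and 0.0678. The summed level of 12 acute phase genes was also lowest in the first 2 MYC+Ex3 livers, at 1282 and 1278 RPKM against 1654 to 2690 in wild type. The same livers had the lowest hepatocyte sums of day 4 (1855 and 1683 RPKM, against 2237 to 2645 in wild type), the lowest stellate and fibroblast sums (109 and 121, against 212 to 227) and depths of 6.57 and 7.31 M reads. Beyond the fits named here, the part of keratin-bearing tissue, acute phase state, cell makeup or depth in the Hamp result was not tested.

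Hamp2 varied over a far wider range on day 4, and the sexes separated. The wild-type females had 144, 127 and 126 RPKM and the wild-type males 56.5 and 36.2. In MYC+Ex3 livers the single female had 137 RPKM and the males had 13.6, 17.2, 18.3 and 46.2. Females had 122 and 79.5 in the Ex3 and 105.2 and 105.3 in the MYC group, where males had 22.5, 36.3 and 54.1 and 21.8, 45.6 and 34.8. No male of the 12 reached the lowest of the 8 females in any group. With group in the model, Hamp2 was higher in females by 1.74 on the log2 scale (SE 0.23, limma adjusted p = 5.58e-05, higher in females in 4 of 4 groups), with means of 118 RPKM in females and 33.6 in males. Of all genes, 3.09% were called for sex on day 4. Hamp itself averaged 171 RPKM in females and 137 in males and did not pass (0.27, adjusted p = 0.460).

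Against wild type, the log2 change of Hamp2 in MYC+Ex3 livers was -1.45 (95% interval -2.69 to -0.21, limma adjusted p = 0.0835), in MYC livers -0.71 (adjusted p = 0.429) and in Ex3 livers -0.68 (0.992). None passed the test. The MYC+Ex3 value became -0.75 (adjusted p = 0.102) with a term for sex and -1.06 (0.153) in males alone. Without the female MYC+Ex3 liver 5 it was called (-1.98, adjusted p = 0.0108), as it was without wild-type liver 4 (-1.76, 0.0483) and among keratin-free livers (-2.40, 0.028). Wild-type liver 4 was a male, and the keratin-free MYC+Ex3 livers, 1 and 2, were males. The sexes were thus more unequal in these sets than in the full groups, and the part of sex in these calls was not tested.

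In the tumours both hepcidin genes were lowest where MYC and Ex3 were combined. Hamp was at 31.2, 32.2, 29.9, 20.2, 27.2, 28.7 and 19.1 RPKM in the 4-OHT livers. The MYC tumours had 33.3, 20.3 and 22.7 RPKM, and the tumours with both alleles 14.4, 16.7 and 16.2. Every MYC+Ex3 tumour was below every liver, whereas the MYC tumours overlapped the livers. The fall in MYC+Ex3 tumours was -0.72 on the log2 scale (SE 0.18, limma adjusted p = 0.0037), from 26.9 ± 5.22 RPKM (n = 7) to 15.8 ± 1.23 (n = 3). In MYC tumours the difference was -0.09 (adjusted p = 0.708), and the tumour groups differed by -0.63 (95% interval -1.09 to -0.16, adjusted p = 0.132) although they did not overlap. Of 12 hepatocyte markers 1 fell in MYC and 4 fell in MYC+Ex3 tumours (7 and 9 after rescaling) and none rose. Over all genes 13.7% and 18.4% fell, and 2790 and 3246 of 11868 after rescaling. The summed levels of the markers were 304 to 527 and 314 to 406 RPKM against 380.1 to 514 in the livers.

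Hamp2 stood at 1.20, 1.07 and 0.667 RPKM in the MYC+Ex3 tumours, with 9 to 19 reads each. The MYC tumours had 22.6, 3.42 and 23.7 RPKM, and the 4-OHT livers 1.61 to 14.99 with a median of 8.23. The MYC+Ex3 tumours were below all other libraries of the set, and 2 of the 3 MYC tumours were above every 4-OHT liver. The log2 change of MYC+Ex3 tumours was -1.98 against 4-OHT livers (SE 0.54, limma adjusted p = 0.0055) and -2.80 against MYC tumours (SE 0.64, 0.0235). In the means this was 0.979 ± 0.277 RPKM against 7.84 ± 4.42 and 16.6 ± 11.4. The call between the tumours was lost without any of the tumours except MYC tumour 2, whose omission gave -3.62 (adjusted p = 0.000845); without the others the adjusted p ran from 0.0542 to 0.101. It was also lost with no filter (0.0534), sample weights (0.11045), voom (0.0885), males alone (0.233) and only the 2 groups fitted (0.11999). The call against the livers was lost in males alone (-1.57, adjusted p = 0.125). It was also lost against only the 3 4-OHT livers with S15 in their titles (-1.395, 0.089). Leaving out MYC tumour 2 called a rise of Hamp2 in MYC tumours (1.64, adjusted p = 0.0114), which was 0.82 (0.219) with all 3.

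A female excess of Hamp2 was not called in the second set. With group in the model the female minus male difference was 0.40 (95% interval -0.70 to 1.4997, limma adjusted p = 0.995), so an excess is neither shown nor excluded. In this comparison 0.0506% of all genes were called. Over all groups the mean was 7.14 RPKM in 4 females and 8.78 in 9 males. These means mix groups, and the MYC tumours, with levels of 22.6 and 23.7 RPKM among them, were all males. The 4-OHT females had 8.23, 11.4 and 8.33 RPKM (mean 9.30) and the males 14.99, 5.73, 4.67 and 1.61 (mean 6.75), so within that group the order of the means is opposite to that over all groups. The sexes overlapped there. The difference between the 2 sets in this respect was not tested. No member was called for sex in the second set, where none had an unadjusted p under 0.05.

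Erythroid genes were high in the same tumours. In MYC+Ex3 tumours 7 of 8 erythroid markers rose against 4-OHT livers (6 after rescaling) and none fell, where 42.3% of all genes rose. The rises were led by Slc4a1, the anion exchanger of red cells (3.76 on the log2 scale, 20.4 against 0.575 RPKM). The summed erythroid level was 87.6, 101 and 78.5 RPKM in MYC+Ex3 tumours, 15.8, 82.8 and 20.7 in MYC tumours and 19.3 to 39.1 in 4-OHT livers. MYC tumour 2, which had the high sum of its group, also had the low Hamp2. None of the 8 rose in MYC tumours, where 36.2% of all genes rose, and none of the 4 tested on day 4 was called. The part of erythroid cells in the hepcidin or Tfrc results was not tested. In bulk tissue, fewer cells of a type and less RNA per cell cannot be told apart.

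**Figure D2:**
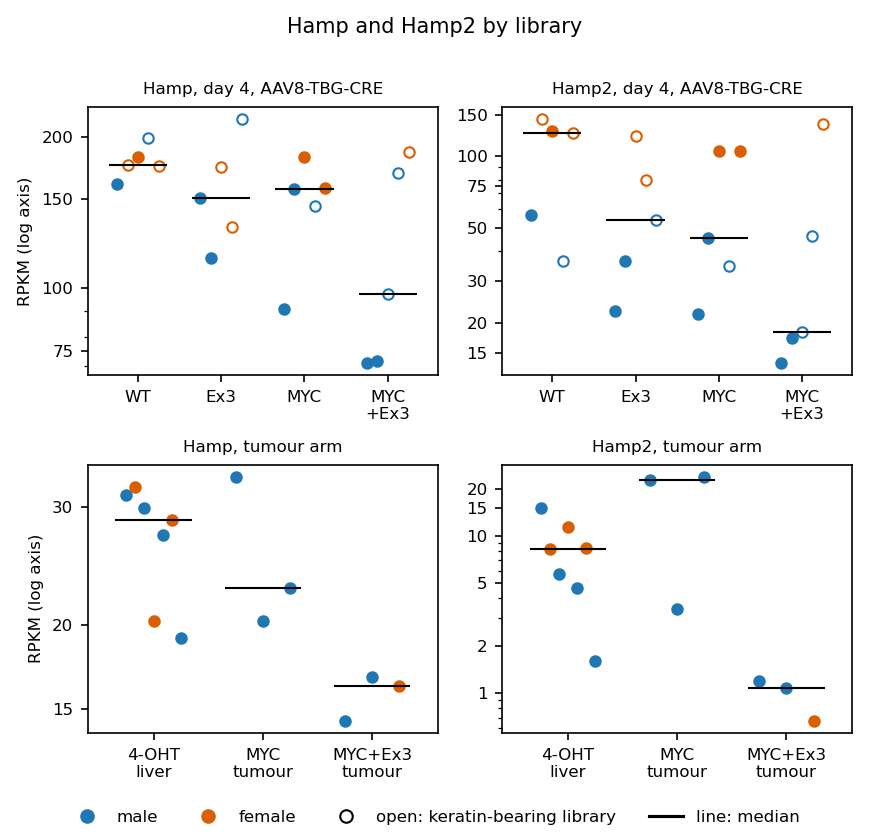
Level of Hamp and Hamp2 in each library in RPKM on a log axis, by group, with blue points for males, orange for females, open points for keratin-bearing livers and a line at the group median. On day 4 the orange Hamp2 points (79.5 to 144 RPKM) lie above all blue ones (13.6 to 56.5), and the 3 MYC+Ex3 tumours lie lowest for both genes.

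Bmp6, the signal that reports liver iron, rose in MYC+Ex3 tumours. It was at 2.40, 2.21 and 2.55 RPKM there and at 0.455 to 1.11 RPKM in the 7 4-OHT livers, with no overlap. The log2 change was 0.85 (SE 0.22, limma adjusted p = 0.00445), with 159 to 210 reads per tumour and 42 to 85 per liver. MYC tumours had 3.11, 1.45 and 0.494 RPKM, spanning both groups, and did not pass the test (0.39, adjusted p = 0.156). Without MYC tumour 3 a rise was called there (0.76, adjusted p = 0.00515), and without MYC tumour 1 the change was 0.03. In males alone the MYC+Ex3 change was 0.83 (adjusted p = 0.0741).

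On day 4 the Bmp6 levels of MYC+Ex3 livers (5.11, 6.63, 5.09, 5.70 and 5.51 RPKM) lay above all MYC livers (4.50, 4.24, 4.35, 1.28 and 3.35). The difference of 0.60 (95% interval 0.18 to 1.03) did not pass the test over all genes (limma adjusted p = 0.846). Wild-type livers had 4.78, 3.72, 7.18, 4.52 and 4.36 RPKM and overlapped both. In MYC against wild type the change was -0.42 (adjusted p = 0.141). MYC liver 4, the lowest for Bmp6, had the lowest summed level of 12 endothelial markers on day 4, at 152 RPKM against 283 to 489 in wild type. The counts behind Bmp6 on day 4 were only 14 to 117 reads per liver.

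Endothelial markers and Bmp2 fell in both kinds of tumour, whereas the rise of Bmp6 was called only in MYC+Ex3 tumours. Of 12 endothelial markers, 10 fell in MYC and 10 in MYC+Ex3 tumours against 4-OHT livers and none rose. Over all genes, 36.2% and 42.3% rose and 13.7% and 18.4% fell in those comparisons. The summed level of these markers was 39.2 to 44.3 RPKM in MYC+Ex3 tumours, 34.5 to 65.7 in MYC tumours and 76.5 to 126 in the livers. On day 4, 3 fell in MYC and 2 in MYC+Ex3 livers, where 5.36% and 6.18% of all genes fell, and 6 in each after rescaling. Of 10 stellate and fibroblast markers, 4 rose and 3 fell in MYC tumours and 2 rose and 5 fell in MYC+Ex3 tumours. Bmp2, the other endothelial ligand, fell, with a log2 change of -1.404 in MYC tumours (1.48 against 5.35 RPKM, limma adjusted p = 0.000635) and -1.81 in MYC+Ex3 tumours (0.767 RPKM, 4.58e-05). The sites of Bmp6 expression were not measured, and the part of cell makeup in its rise was not tested.

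Id1, a direct SMAD target that reports BMP signalling, was variable. On day 4 it was at 23.5, 50.5, 53.4, 44.9 and 38.3 RPKM in wild type and at 16.2, 14.7, 24.6, 35.3 and 51.05 RPKM in MYC+Ex3 livers. The groups overlapped and the change of -0.65 did not pass (limma adjusted p = 0.218), nor did -0.71 in Ex3 livers (0.962) and -0.46 in MYC livers (0.415). Id1 was higher in females by 0.84 on the log2 scale (adjusted p = 0.0342, means of 44.6 and 24.3 RPKM), with overlap between females at 26.0 to 55.4 and males at 13.8 to 44.9. In MYC tumours Id1 fell by 0.46 on the log2 scale (adjusted p = 0.0379), from a range of 3.33 to 6.29 RPKM in livers to 2.53, 3.11 and 3.72. That call was lost without MYC tumour 1 (adjusted p = 0.142) or 2 (0.077), without 4-OHT liver 2, 4 or 5 (0.0654, 0.0652 and 0.0646), with no filter (0.0595), with sample weights (0.207) and against either title set of the 4-OHT livers (0.0914 and 0.0952). It was also lost with a term for sex (-0.37, 0.114) and in males alone (-0.34, 0.192). In MYC+Ex3 tumours (2.84, 4.92 and 3.98 RPKM) the change was -0.22 (0.289).

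**Figure D3:**
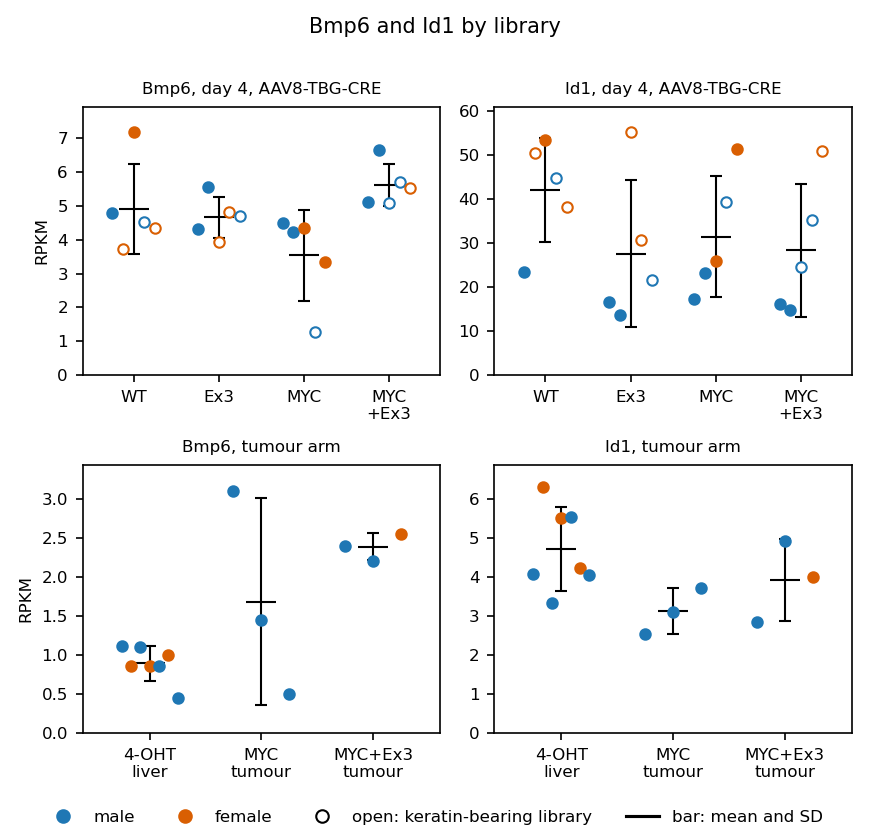
Level of Bmp6 and Id1 in each library in RPKM, by group. The MYC+Ex3 tumours have Bmp6 at 2.21 to 2.55 RPKM, above the 0.455 to 1.11 of the 4-OHT livers, while Id1 overlaps between the tumours and those livers.

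The further genes of the BMP and SMAD arm are given beside the share of all genes that fell, which was 5.36% in MYC livers, 6.18% in MYC+Ex3 livers, 13.7% in MYC tumours and 18.4% in MYC+Ex3 tumours. Of 18 tested, 4 fell and none rose in MYC livers, among them Bmp2 (-0.73, limma adjusted p = 0.0455) and Tmprss6, the protease that restrains hepcidin signalling (-0.39, 0.0269). The same counts held in MYC+Ex3 livers, led by the SMAD targets Id2 (-0.76, 0.000317) and Id3 (-0.53, 0.0379). The medians of -0.24 and -0.26 compare with 0.07 and 0.05 over all genes. With rescaling, 7 and 6 of the 18 fell. In MYC tumours 7 of 17 fell and 1 rose, and in MYC+Ex3 tumours 8 fell and 4 rose. The falls were led by Bmp2, Id3 (-1.72 in MYC+Ex3 tumours, 4.10 against 16.1 RPKM, adjusted p = 2.05e-06) and Atoh8, another SMAD target (-1.46, 0.362 against 2.76 RPKM), and the rises by Smad4, the shared SMAD (0.63), and Smad5 (0.40). After rescaling the counts in MYC+Ex3 tumours were 10 fallen and 1 risen, so most of the rises depend on the scale. Hfe, mutated in hereditary haemochromatosis (-0.64), and Neo1, which binds the BMP coreceptor hemojuvelin (-0.63), were among those that fell in MYC+Ex3 tumours, with adjusted p of 0.00143 and 0.00979, and were named after their values were seen. The endothelial markers given above fell in the same tumours. The part of cell makeup in the changes of this arm was not tested.

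Of the 8 genes tested in the inflammatory arm of hepcidin control, none rose in any comparison. The share of all genes that fell was 5.36% in MYC livers, 6.18% in MYC+Ex3 livers, 13.7% in MYC tumours and 18.4% in MYC+Ex3 tumours. The shares that rose were 16.9%, 17.9%, 36.2% and 42.3% in the same order. After rescaling, 3, 5, 3 and 4 of the 8 genes fell there. In MYC+Ex3 livers 5 fell against wild type: Stat3 (-0.58, limma adjusted p = 0.0498), the shared receptor chain Il6st (-0.54, 0.00286), Jak1 (-0.46, 0.000715), and also Jak2 and Cebpa, named after their values were seen. In MYC livers Jak2, Il6st and Jak1 fell. In MYC tumours the interleukin-6 receptor Il6ra fell (-0.91, 10.6 to 5.22 RPKM, 0.0145) with Il6st and Jak1, and in MYC+Ex3 tumours Il6st (-0.71, 0.000146), Cebpa (-0.59, 0.00929) and Jak1.

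Acute phase genes, hepatocyte genes induced by interleukin-6 as Hamp is, fell strongly in the tumours. Of 12, 7 fell and none rose in MYC tumours, and 7 fell and 1 rose in MYC+Ex3 tumours. Over all genes, 13.7% and 18.4% fell. Saa1 fell from 26.8 RPKM in 4-OHT livers to 9.38 in MYC tumours (-1.41 on the log2 scale) and to 1.51 in MYC+Ex3 tumours (-3.42, limma adjusted p = 6.89e-08). The riser was Saa3 (0.82, adjusted p = 0.0348), a serum amyloid made largely outside hepatocytes, which was not called after rescaling. Between the tumours, Saa2 (-2.19, 0.000309) and Saa1 (-2.02, 0.000529) fell with MYC+Ex3. On day 4 the changes were few: Crp (-0.53, 0.0349) in MYC livers, and Apcs (-0.97, 0.000697) and Crp (-0.64, 0.0109) in MYC+Ex3 livers.

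Tfrc, the iron import receptor, rose in every comparison of MYC-bearing tissue with its controls. On day 4 wild-type livers had 22.8, 39.8, 12.0, 27.6 and 40.4 RPKM and Ex3 livers 17.5, 22.9, 27.6, 36.5 and 25.8. MYC livers had 58.9, 35.3, 70.2, 127 and 46.0 RPKM, and MYC+Ex3 livers 50.97, 57.6, 78.7, 64.8 and 39.8. In each MYC-bearing group 4 of 5 livers were above every wild-type liver, and all MYC+Ex3 livers were above every Ex3 liver. The log2 change against wild type was 1.19 in MYC livers (SE 0.32, limma adjusted p = 0.01001). It was 1.09 with both alleles (SE 0.32, 0.0163), with means of 67.4 ± 35.6 and 58.4 ± 14.6 against 28.5 ± 12.0 RPKM. MYC+Ex3 against Ex3 gave 1.14 (0.0141). Ex3 alone gave -0.05 (95% interval -0.71 to 0.62), and MYC+Ex3 against MYC -0.10 (-0.76 to 0.56).

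These calls for Tfrc held with each library left out in turn. MYC liver 4, the highest at 127 RPKM, moved the MYC change to 0.93 when left out. In MYC+Ex3 against wild type the change was 1.65 among keratin-free livers (limma adjusted p = 0.00754) and 0.72 among keratin-bearing ones (0.0805), and 1.28 in males alone (0.0419). Erythroid markers overlapped between all day-4 groups, with summed levels of 43.2 to 192 RPKM. Their part in the Tfrc change was not tested.

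In the second set Tfrc separated all tumours from all livers. The 4-OHT livers had 7.58, 5.27, 9.22, 4.88, 10.3, 9.11 and 8.23 RPKM, the MYC tumours 25.6, 22.5 and 26.8, and the MYC+Ex3 tumours 23.6, 25.4 and 29.97. The lowest tumour was above the highest liver by more than the spread of either. The log2 change was 1.59 in MYC tumours (SE 0.19, limma adjusted p = 2.14e-05) and 1.66 in MYC+Ex3 tumours (SE 0.19, 5.74e-06), and the tumours differed by 0.07 (95% interval -0.41 to 0.55). After rescaling the changes were 1.39 and 1.45. The erythroid sum of MYC tumour 1 lay below those of the livers and that of MYC tumour 3 within them. Their Tfrc was at 25.6 and 26.8 RPKM. The part of erythroid cells in the Tfrc change was not tested.

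Tfr2, the receptor of hepatocytes, fell in MYC+Ex3 livers and in both kinds of tumour. Wild-type livers of day 4 had 139, 126, 143, 129.8 and 112 RPKM, Ex3 livers 148, 136, 120.2, 134 and 149, and MYC+Ex3 livers 102, 91.9, 101, 96.2 and 103. All 5 MYC+Ex3 livers were below all wild-type and all Ex3 livers. The change was -0.39 against wild type (SE 0.11, limma adjusted p = 0.0180) and -0.47 against Ex3 (SE 0.11, 0.00557), from means of 129.9 ± 12.1 and 138 ± 11.9 to 98.9 ± 4.70 RPKM. MYC livers (109, 128, 106, 76.4 and 126 RPKM) did not pass against wild type (-0.27, 0.102). Their change was called after rescaling (-0.37, 0.0219), with a keratin term (-0.34, 0.0245) and without MYC liver 2 (-0.33, 0.0492) or 5 (-0.33, 0.0479). Against wild type, the MYC+Ex3 call was lost among keratin-bearing livers (-0.29, 0.082) and in males alone (-0.45, 0.107).

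In the tumours Tfr2 was at 23.9, 17.4 and 17.3 RPKM with MYC and at 11.1, 16.6 and 17.5 RPKM with MYC+Ex3, below the 26.3 to 33.5 RPKM (median 31.4) of every 4-OHT liver. The log2 changes were -0.60 (SE 0.15, limma adjusted p = 0.00438) and -0.97 (SE 0.15, 7.61e-05). The tumour groups overlapped and differed by -0.37 (95% interval -0.74 to 0.01, adjusted p = 0.303). The day-4 liver with most Tfrc, MYC liver 4 (127 RPKM), had the least Tfr2 (76.4 RPKM).

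**Figure D4:**
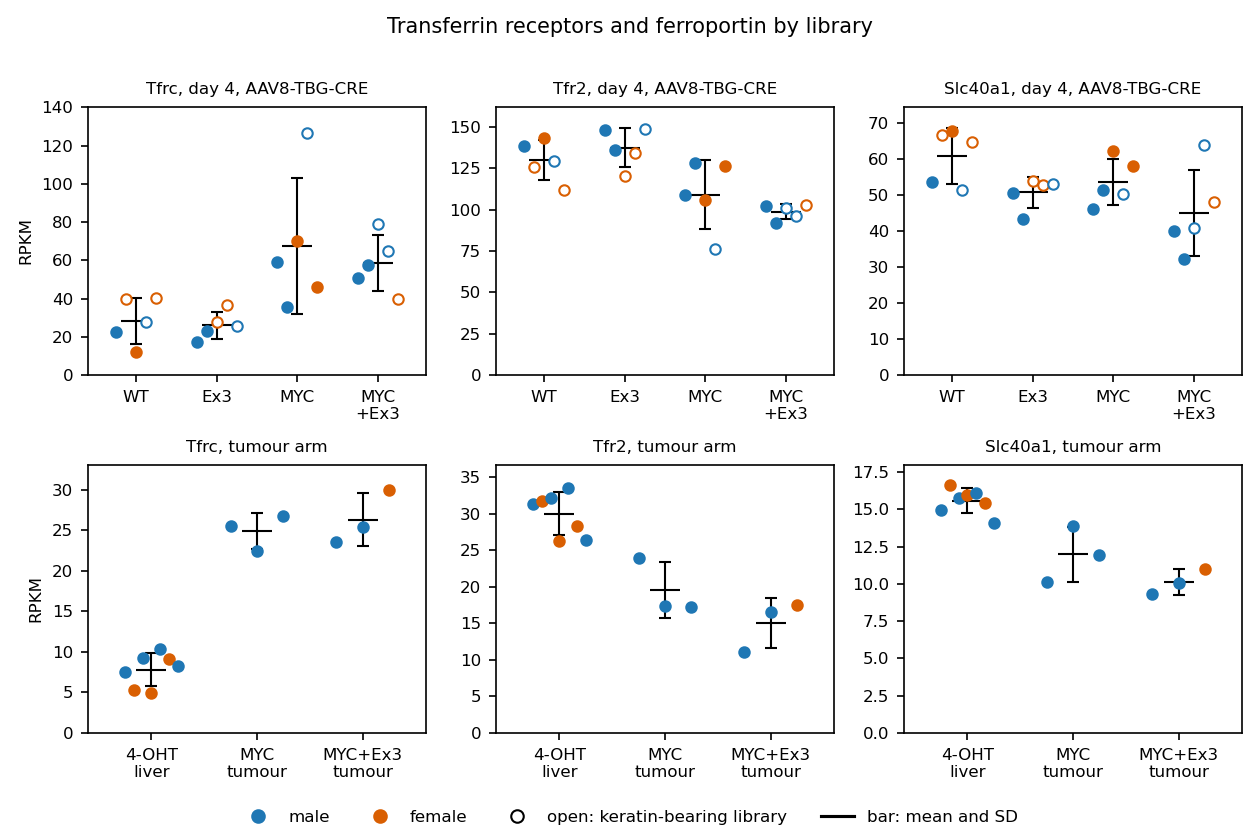
Level of Tfrc, Tfr2 and Slc40a1 in each library in RPKM, by group, with the mean and SD; the axes are linear and separate for the day-4 livers and for the second set. Tfrc is higher and Tfr2 and Slc40a1 lower in all 6 tumours than in any of the 7 4-OHT livers.

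**Figure D5:**
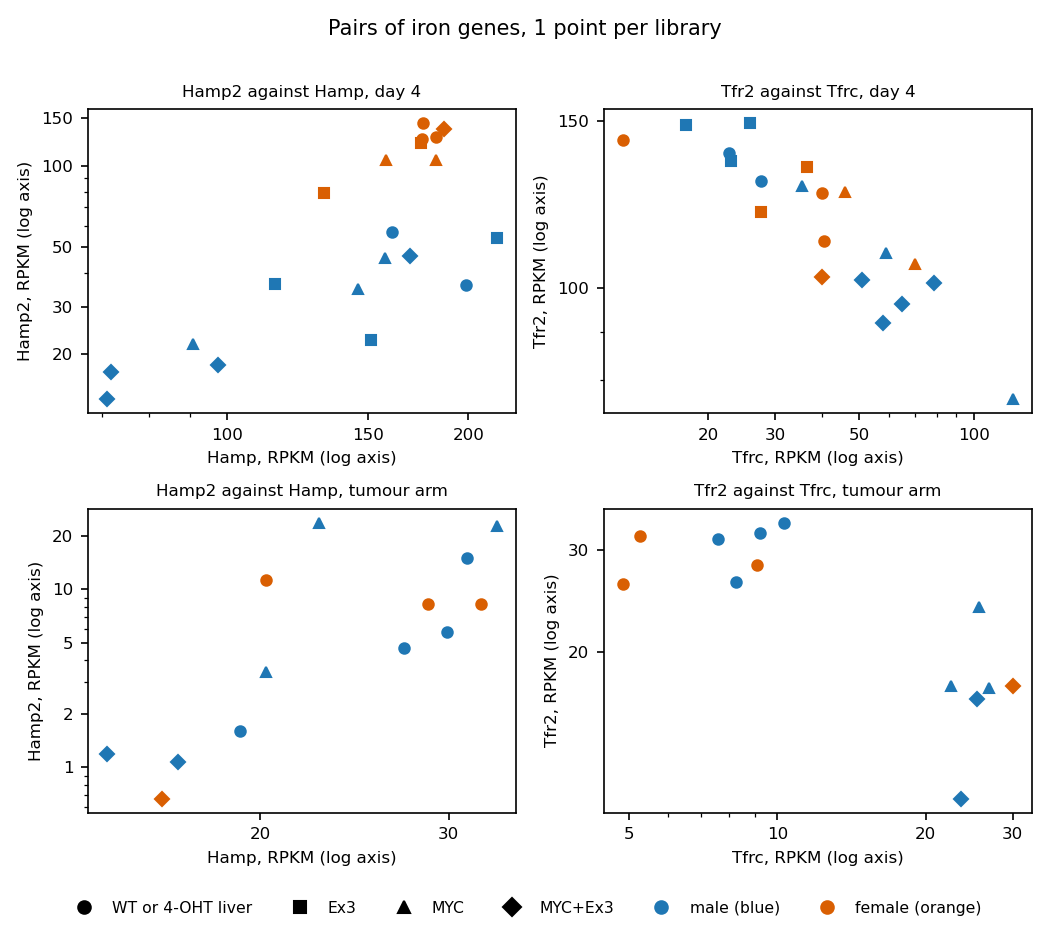
Hamp2 against Hamp and Tfr2 against Tfrc for each library, in RPKM on log axes, with the sets in separate panels and the marker shape giving the genotype. Tumours form a group at high Tfrc and low Tfr2, and the MYC+Ex3 tumours lie at 0.667 to 1.20 RPKM of Hamp2 while Hamp stays at 14.4 to 16.7.

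Slc40a1, the exporter that hepcidin acts on, fell as well. On day 4 wild-type livers had 53.7, 66.7, 67.8, 51.5 and 64.8 RPKM and MYC+Ex3 livers 40.1, 32.3, 40.9, 64.0 and 48.0. Of the MYC+Ex3 livers, 4 of 5 were below every wild-type liver. The change was -0.45 (SE 0.14, limma adjusted p = 0.0236), from 60.9 ± 7.71 to 45.1 ± 12.0 RPKM. It was lost without MYC+Ex3 liver 1 (adjusted p = 0.061) or 2 (-0.35, 0.0843), without wild-type liver 2, 3 or 5 (0.0557, 0.0541 and 0.0549), with only the 2 groups fitted (0.0666), and with a term for sex (-0.36, 0.0587). Among keratin-free livers it was -0.73 (0.0193), among keratin-bearing ones -0.27 (0.285) and in males alone -0.29 (0.416). The call held with a keratin term, and with sex and keratin terms together. MYC livers (46.2 to 62.3 RPKM) gave -0.18 (0.405) and Ex3 livers (43.5 to 54.0) -0.25 (0.985).

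All 6 tumours had less Slc40a1 than any 4-OHT liver: 10.1, 13.9 and 11.9 RPKM in MYC tumours and 9.32, 10.0 and 11.0 in MYC+Ex3 tumours, against 14.1 to 16.6 (median 15.8). The changes were -0.36 (SE 0.11, limma adjusted p = 0.0112) and -0.57 (SE 0.11, 0.000311). The MYC call was lost without MYC tumour 1 (-0.26, adjusted p = 0.0627), with sample weights (-0.29, 0.0846) and in males alone (-0.33, 0.0696). It was also lost against only the 3 4-OHT livers with S15 in their titles (-0.33, 0.0971). Macrophages are rich in ferroportin, and 10 of 12 macrophage markers fell in MYC and 9 in MYC+Ex3 tumours, with none rising. Over all genes, 13.7% and 18.4% fell. The summed level of these markers was 80.4, 205 and 154 RPKM in MYC tumours and 111 to 140 in MYC+Ex3 tumours, against 191 to 264 in the livers. On day 4 the single call among them was a rise of Cd68 in MYC livers. The MYC tumour with the lowest macrophage sum, tumour 1, also had the lowest Slc40a1 of its group. The part of macrophages in the fall of Slc40a1 was not tested.

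Trf and the ferritin genes, which are among the most abundant messengers of the liver, did not pass the test in any comparison. Trf was at 179 to 227 RPKM in wild-type and 151 to 232 in MYC+Ex3 livers (-0.18, limma adjusted p = 0.285). In the second set it was at 30.6 to 41.2 RPKM in livers, 29.2 to 44.7 in MYC tumours and 27.3 to 37.3 in MYC+Ex3 tumours (-0.17, 0.343). After rescaling, Trf was called in MYC+Ex3 tumours (-0.39, 0.0205), as it was by limma voom on reads recovered from the RPKM steps (-0.35, 0.0105). Fth1 ranged from 121 to 192 RPKM over all day-4 livers, with changes of 0.00 in both MYC and MYC+Ex3 livers (95% intervals -0.25 to 0.25 and -0.25 to 0.26). It was at 28.0, 32.5 and 34.6 RPKM in MYC+Ex3 tumours against 22.5 to 31.1 in livers (0.20, adjusted p = 0.227), a sign that turned to -0.02 after rescaling. Ftl1 ranged from 129 to 219 RPKM on day 4 and differed by -0.01 in MYC+Ex3 tumours (95% interval -0.32 to 0.31) and by 0.01 in MYC tumours, where rescaling gave -0.21 (0.205). The compression of abundant genes described above may affect these 3 genes as it may Hamp.

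Beyond the members, 14 genes of iron uptake, storage, export and sensing were tested on day 4 and 13 in the second set. Of all genes, 5.36% fell in MYC livers and 6.18% in MYC+Ex3 livers. On day 4 the calls were falls: Epas1, a hypoxia factor whose translation iron regulatory proteins repress, in MYC livers (-0.78, limma adjusted p = 0.0121) and MYC+Ex3 livers (-0.66, 0.0282), and in the latter also Slc39a14, a hepatocyte importer of iron not bound to transferrin (-0.71, 0.0092), and Cp, the ferroxidase ceruloplasmin (-0.51, 0.00888). Against Ex3 livers 1 rose in MYC+Ex3 livers, the iron chaperone Pcbp1 (0.43, 0.0302), which was not called after rescaling. In MYC tumours 4 rose and 3 fell, and in MYC+Ex3 tumours 5 rose and 3 fell. Over all genes, 36.2% rose and 13.7% fell in MYC tumours, and 42.3% rose and 18.4% fell in MYC+Ex3 tumours. The medians of 0.04 and 0.17 compare with 0.19 and 0.23 over all genes. The tumour counts are thus no result about these genes as a set. The risers were led by Steap3, the endosomal reductase that acts on iron taken up through Tfrc (3.97 RPKM in livers, 8.05 in MYC and 7.21 in MYC+Ex3 tumours), and the chaperones Pcbp1 and Pcbp2. The fallers were Epas1 (-1.92 in MYC+Ex3 tumours, 2.84 against 13.4 RPKM, adjusted p = 1.14e-06), Slc39a14 (-0.58) and Slc39a8 (-0.58). Of 12 endothelial markers, 10 fell in each kind of tumour as well. The part of cell makeup in the falls of Epas1, on day 4 or in tumours, was not tested. Rescaling gave 4 risen and 5 fallen in MYC tumours and 4 and 4 in MYC+Ex3 tumours.

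Genes of mitochondrial iron use are given beside the share of all genes that rose, which was 16.9% in MYC livers, 17.9% in MYC+Ex3 livers, 36.2% in MYC tumours and 42.3% in MYC+Ex3 tumours. Of 20 genes of iron-sulphur and haem synthesis, 4 rose and 1 fell in MYC livers and 7 rose and none fell in MYC+Ex3 livers. Among them were Fdxr, the reductase that feeds iron-sulphur assembly (12.9 RPKM in wild type, 22.8 with MYC and 24.1 with both alleles, limma adjusted p = 0.0132 and 0.00626), and Lyrm4, a partner of the sulphur donor enzyme (0.65 and 0.76). In MYC+Ex3 tumours 12 rose and 1 fell, with the mitochondrial importer Slc25a28 at 0.94 on the log2 scale (limma adjusted p = 3.54e-05), while Alas1, the rate-limiting haem enzyme of hepatocytes, fell by 0.81 (0.0266). In MYC tumours 7 rose and 1 fell. Rescaling left 10 risen and 1 fallen in MYC+Ex3 tumours, and 6 risen and 3 fallen in MYC tumours.

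Among 9 genes of haem and haemoglobin scavenging, Cd163, the macrophage receptor for haemoglobin bound to haptoglobin, fell in each comparison of MYC-bearing tissue with wild-type, Ex3 or 4-OHT livers, from 12.1 RPKM in wild type to 6.12 in MYC and 4.58 in MYC+Ex3 livers. In the tumours it was at 0.783 and 1.09 RPKM against 6.67 in livers (-2.14 and -1.82). The share of all genes that fell was 5.36% in MYC livers and 6.18% in MYC+Ex3 livers. It was 4.70% in MYC+Ex3 against Ex3 livers, 13.7% in MYC tumours and 18.4% in MYC+Ex3 tumours. The part of macrophages in the fall of Cd163 was not tested. Blvrb, a reductase abundant in red cells, fell in MYC tumours (-0.79, limma adjusted p = 0.00644) and rose in MYC+Ex3 over MYC tumours (1.37, 27.8 against 10.8 RPKM, 0.00538). In that comparison 1 of 8 erythroid markers rose, Slc4a1 (2.61, 0.0495), and none after rescaling, where 2.02% of all genes rose before rescaling.

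The genes whose levels followed the members most closely are given as a description over libraries that share groups, sex and depth, by Pearson r of log2(RPKM + 1). Over the 20 day-4 livers these were Tfec (0.89), Ifi203 (0.88), Mndal (0.87), Nnmt and Sqrdl (0.86 each) for Hamp, and Fam46a, Slc22a26 (0.91 each), Klhl13 (0.90) and Cyp17a1 (0.89) for Hamp2. For Tfrc they were Tmem55a (0.95), Slmo2, Cacybp, Zdhhc21 (0.94 each) and Bcap29 (0.93). Over the 13 libraries of the second set Hamp was followed by Iyd (0.95), Bhmt (0.94), Agpat2 (0.93), Apoc3 and Cst3 (0.91 each), and Hamp2 by Atp11a (0.94), Pecam1, Cav2 (0.92 each), Sucnr1 (0.91) and Sox18 (0.89). Tfrc was followed by Srm (0.99), Ubqln4, Nop2, Ipo5 and Snhg1 (0.98 each). Between Hamp and Hamp2 the r was 0.75 over the day-4 livers and 0.75 over the second set.

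In the authors' deposited table, which holds their own log2 fold changes and adjusted p-values, an adjusted p under 0.05 marked 1 member up and none down in MYC against wild-type livers (Tfrc, 0.95) and none in Ex3 against wild type or MYC+Ex3 against MYC. For MYC+Ex3 against wild-type livers the authors' deposited table marked Tfrc up (0.85) and Hamp (-0.62, adjusted p of 0.0446), Tfr2 (-0.47) and Slc40a1 (-0.50) down. For the tumours, the authors' deposited table marked Tfrc up and Tfr2, Slc40a1 and Id1 down with MYC, and with MYC+Ex3 Tfrc (1.51) and Bmp6 (1.19) up and 6 members down, Trf (-0.39) and Ftl1 (-0.23) among them. Between the tumours, the authors' deposited table marked Hamp2 alone (-2.36, 6.59e-06). Over all genes, the authors' deposited table marked 2793 of 13636 in MYC and 3813 of 13729 in MYC+Ex3 against wild-type livers. It marked 98 of 12806 in Ex3 against wild type and 37 of 13383 in MYC+Ex3 against MYC livers. For the tumours the authors' deposited table marked 6922 of 15552 with MYC, 10091 of 16637 with MYC+Ex3 and 615 of 13710 between them. These member counts are no result about iron genes as a set.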

How the data were processed

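The deposited values are RPKM, made by the authors with 1 column per library. TopHat2 2.0.8, SAMtools, featureCounts 1.4.5-p1 and DESeq2 and the build mm9 are named without roles in the submitters' processing notes, and per the labels' protocols the libraries were strand-specific total RNA. The authors' log2 fold changes and p-values, adjusted, were copied from the deposited table and tested no further. No column belonged to a sample of another series (0 columns).

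Within each gene the RPKM were whole multiples of 1 read (tolerance 0.01 reads), so reads were recovered for all 20485 genes above 0 (100%); 1186 genes were 0 everywhere. Genes with an RPKM of at least 1 in at least 3 libraries of a set were tested with limma 3.58.1 in R 4.3.3 on log2(RPKM + 1), with a trend in the prior, separately for the 20 day-4 livers and the 13 libraries of the second set. This scale understates changes of low genes. The sex test added sex to group. Replicate numbers follow record order and pair nothing.

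The alternatives were a pseudocount of 0.1, no filter, a filter at RPKM 5, median-ratio rescaling, only the groups compared, a sex covariate, sample weights, each library left out, the keratin-based sets and the 4-OHT livers split by title. Limma voom on recovered reads, males only, a keratin term in the sex test and sex with keratin terms were added after seeing the data. Scripts were tested on simulated data. The members, lists and motifs were chosen with earlier results of these data known. All 10 members are named; from each list up to 3 genes with the largest rise and fall among those called, with exceptions stated; and by likeness the 5 tested genes with the highest r, leaving out predicted genes, clones and members. A few genes that this rule names are not reported here. Promoters are from RefSeq (GRCm38.p6) and transcripts from GENCODE; that build is not the one of the files, so no coordinates are transferred.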

Additional observations from a re-analysis of the deposited data

Results flagged for a closer look

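Of 50 sets of values examined (10 genes in each of the 5 groups of 5 or 7 samples), 2 held a level that stood apart by Dixon's test at the 95% level, and chance flags about 1 in 20. Hamp2 in MYC+Ex3 liver 5 of day 4 was at 137 RPKM while the other 4 livers of its group had 13.6 to 46.2. That liver was the only female of the group. Bmp6 in 4-OHT liver 7 was at 0.455 RPKM against 0.857 to 1.11 in the other 6 livers.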

How the results depend on the processing

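Over 34 changes of single genes and 690 alternative values, 688 kept their direction, 611 also kept their side of the threshold, 53 lost and 24 gained a call. Fth1 in MYC+Ex3 against Ex3 livers (-0.08, not called) turned to 0.00659 without MYC+Ex3 liver 2 (range with a library left out -0.158 to 0.00659) and to 0.0547 among keratin-bearing livers. The number of the 10 genes called changed as follows, and the cause was not tested. Except for rescaling, the calls over all genes under these alternatives are not given here. Whether the counts followed a change over all genes is thus not shown, and they are no result about iron genes as a set. In MYC against wild-type livers it was 1, and 2 with rescaling, 3 with a keratin term and 3 with sex and keratin terms, and 1 to 2 with a library left out. In MYC+Ex3 against wild type it was 4, and 2 with a sex covariate, 7 with sample weights, 1 in males only, 2 with only the groups compared, 0 among keratin-bearing livers, and 2 to 5 with a library left out. In MYC+Ex3 against Ex3 it was 2, and 7 with sample weights and 2 to 3 with a library left out. In MYC tumours against 4-OHT livers it was 4, and 2 with sample weights, in males only or against the S15 4-OHT livers, and 2 to 5 with a library left out. In MYC+Ex3 tumours it was 6, and 4 in males only, 5 with a filter at RPKM 5 or against the S15 4-OHT livers, 7 with rescaling or voom, and 6 to 6 with a library left out. Between the tumours it was 1, and 0 with no filter, sample weights, voom, males only or only the groups compared, and 0 to 1 with a library left out. It stayed at 0 under every alternative run for Ex3 against wild type, MYC+Ex3 against MYC and the interaction. Keratin-bearing livers could not be compared where MYC livers enter, because only 1 bears keratins. No paired analysis was possible because the labels give no replicate numbers. Depth limits Bmp6 on day 4 (14 to 117 reads) and Hamp2 in MYC+Ex3 tumours (9 to 19 reads).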
